A study of Danio rerio with 23 samples.

Results

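Fatty acid binding proteins (FABPs) were examined in zebrafish liver, by looking up 10 gene names of the family in the probe annotation of the arrays. Of these, 8 were found under their own symbol. The gene fabp11a was found under fabp4a, the symbol that RefSeq now gives it. The gene fabp1b.1 was annotated only together with fabp1b.2 on a shared probe set, which cannot be assigned to either copy. Thus 9 genes were measured on probe sets of their own, out of 20908 annotated genes on the array, and each was represented by its brightest probe set.

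Liver RNA was measured on 23 arrays from 8 groups of fish aged 6 months. The first batch held WT fish on a normal diet and HBx,src fish with diet-induced obesity (DIO), both irradiated with 40 Gy. The second batch held WT fish on a normal diet and HBx,src,p53-/+ fish with DIO, irradiated with 10 Gy. Within each genotype, fish received irradiation alone (R) or irradiation and 300 mg/kg Oligo-Fucoidan (OF), a brown seaweed polysaccharide (OF + R). By the methods of the study, OF was given by oral gavage for a month before irradiation and again after it. There were 2 arrays for WT 40 Gy, 2 for WT OF + 40 Gy, 3 for HBx,src 40 Gy and 4 for HBx,src OF + 40 Gy. The second batch had 2 arrays for WT 10 Gy, 2 for WT OF + 10 Gy, 3 for HBx,src,p53 10 Gy and 5 for HBx,src,p53 OF + 10 Gy. All groups were irradiated, so no array shows the unirradiated liver. The transgenes for the hepatitis B virus X antigen (HBx) and for src are driven in hepatocytes by the promoter of fabp10a, which is itself a member of the family. The transgenic fish were obese and were selected as females, whereas the sex of the WT fish was not given in the sources used here, so genotype, diet and sex cannot be told apart. The sources used here do not say whether the arrays came from separate fish, and p-values measure only the spread between arrays.

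FABPs are small barrel-shaped proteins that carry fatty acids, bile acids and other lipids through the cytoplasm, between the plasma membrane, the endoplasmic reticulum, mitochondria, peroxisomes and the nucleus. Each member is named for the tissue in which it was first found. Fish hepatocytes are known for fabp10a, the liver basic type, which is a standard hepatocyte marker in zebrafish. Several FABP genes are targets of peroxisome proliferator-activated receptors (PPARs), nuclear receptors that are themselves switched on by fatty acids.

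The values are log2 signals, on which a difference of 1 is a doubling. The median over all probe sets lay between 2.02 and 2.21 on the arrays of the first batch and between 2.46 and 2.58 on those of the second. A signal near or below it is not a sign of expression, and signals of different probe sets do not rank the genes. Dose and batch change together, so levels at 40 and 10 Gy were not tested against each other, and only differences taken within a batch were compared between batches. Hepatocyte RNA was clear on all arrays, since 22 measured hepatocyte markers averaged 11.37 to 12.44 per array with none below the array median. Exocrine pancreas genes were read too, with a mean over 21 measured markers of 3.20 to 5.36 in the first batch. In the second it was 6.21 to 6.35 in WT 10 Gy and 4.04 to 5.07 in WT OF + 10 Gy fish. In HBx,src,p53 fish it was 6.37 to 8.36 after 10 Gy and 4.96 to 7.74 with OF. The part of pancreas tissue in the FABP values was not tested. Vitellogenin vtg2, the egg yolk precursor made by female liver, was at 13.54 or above on all arrays of WT 10 Gy and HBx,src fish and on those of HBx,src,p53 fish other than replicates 1 and 4 of OF + 10 Gy. It was at 6.51 or below on those 2 arrays and on the WT arrays of the other 3 groups. The WT 10 Gy arrays also carried ovary and oocyte genes, with a mean of 5.81 to 5.87 over 25 measured markers against 1.82 to 3.31 on all other arrays. The signal of src did not separate the genotypes, with 4.16 to 6.20 on the WT arrays and 4.28 to 7.28 on the transgenic arrays, and whether its probe set reads the transgene is not known.

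**Figure D1:**
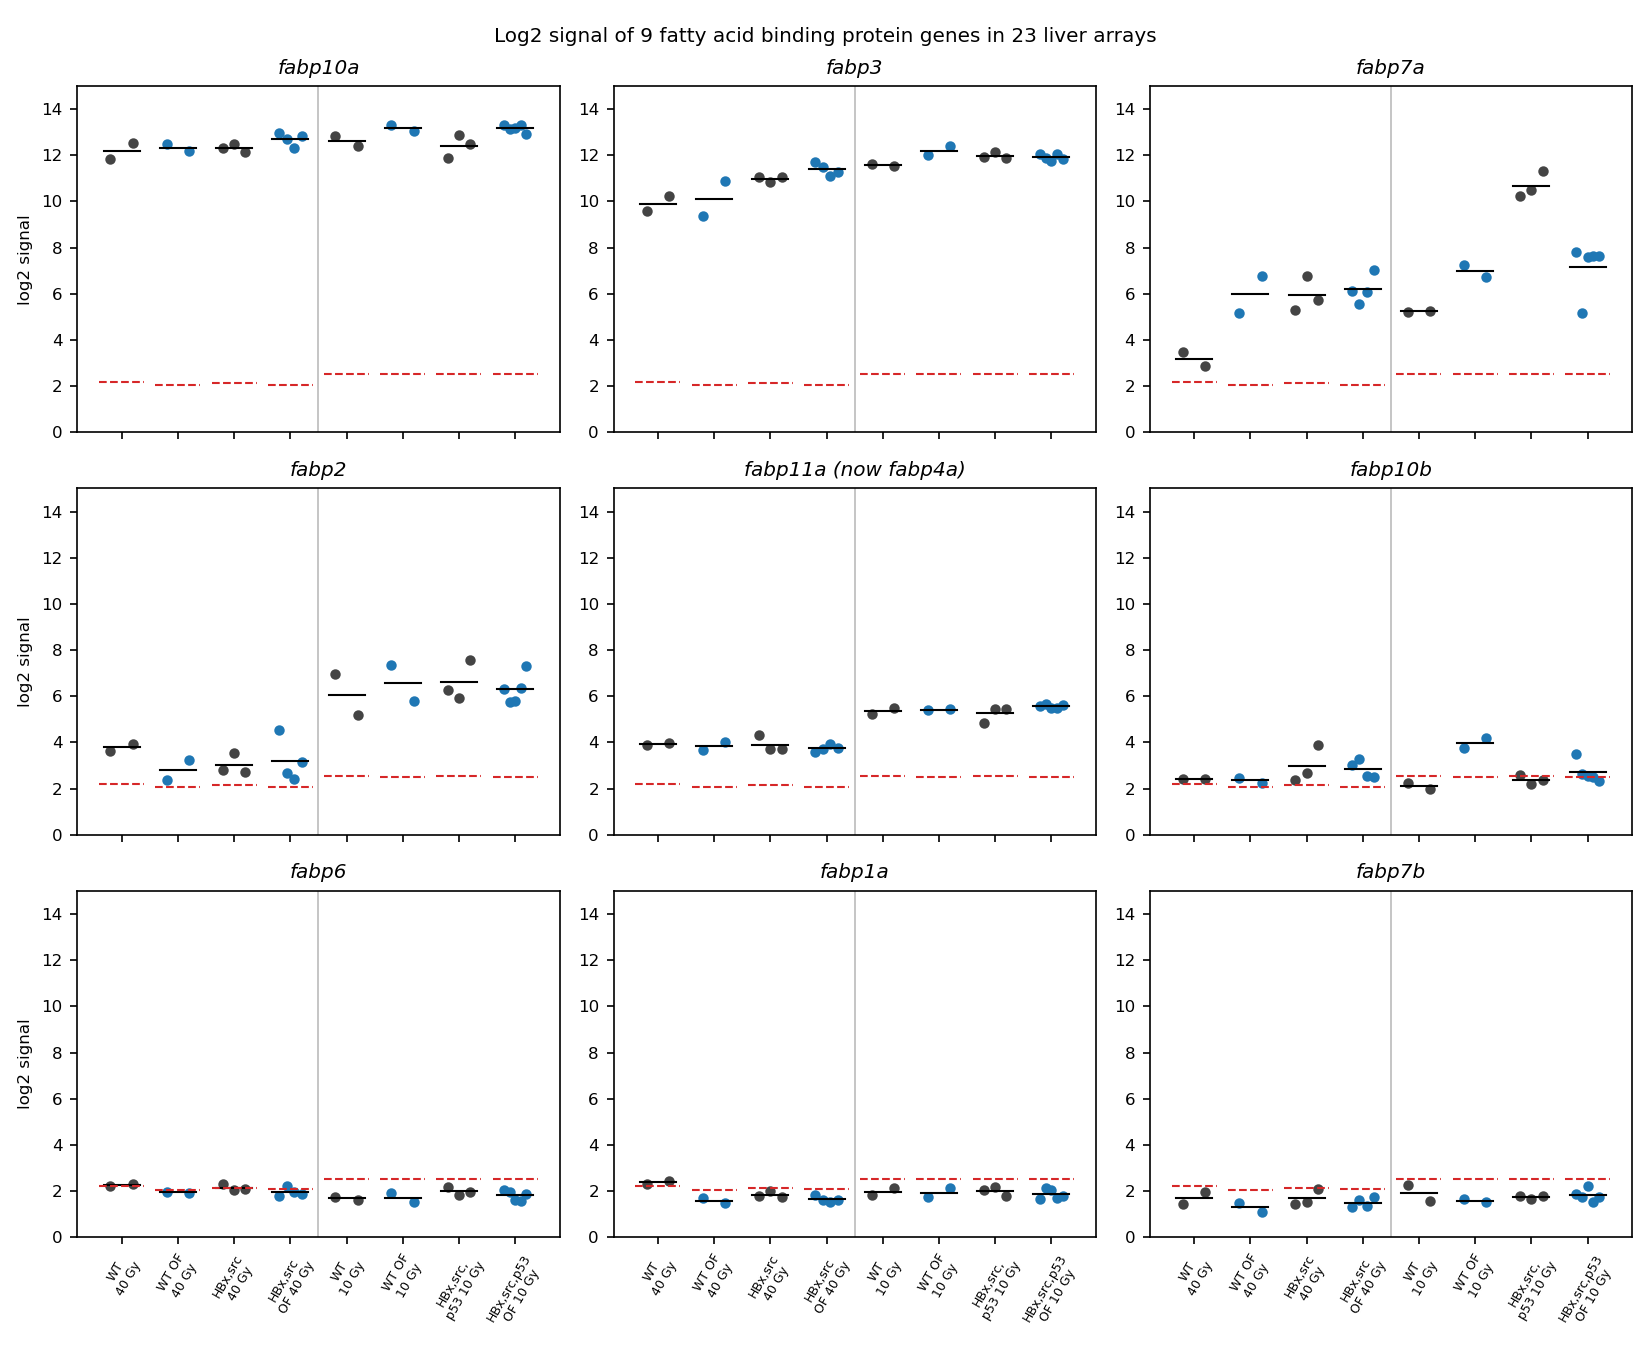
Log2 signal (y axis) of the 9 FABP genes on each of 23 arrays, by group (x axis). Points are arrays (blue with OF, grey without), black lines are group means, red dashed lines are the mean of the array medians, and the grey vertical line separates the 40 Gy batch from the 10 Gy batch. fabp10a and fabp3 stay far above the array median in all groups, fabp7a reaches 10.25 to 11.33 in HBx,src,p53 10 Gy, and fabp6, fabp1a and fabp7b lie near or below the median.

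The family did not respond as a block. With OF in WT 40 Gy fish, 1 of 9 members passed the test (adjusted p under 0.05 over all probe sets), against 4.83% of all annotated genes. With OF in HBx,src 40 Gy fish no member passed the test, against 2.34% of all genes. None of the 9 reached even an unadjusted p of 0.05 in that comparison. With OF in WT 10 Gy fish 1 of 9 passed, against 9.18% of all genes. With OF in HBx,src,p53 10 Gy fish 1 of 9 passed, against 5.8%. For the transgenic obese fish against WT, 1 of 9 passed at 40 Gy alone (2.68% of all genes) and 1 of 9 with OF and 40 Gy (1.4%). At 10 Gy alone 1 of 9 passed (13.8% of all genes). With OF and 10 Gy no member passed (1.06%), and fabp10b had an unadjusted p of 0.00201. Counts of 1 among 9 genes do not set the family apart from other genes. The comparisons share control arrays. In bulk liver, a lower number of cells of a type and less RNA per cell cannot be told apart.

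The member with the largest differences was fabp7a, the brain type, known in the nervous system for marking radial glia. In WT 10 Gy fish it gave 5.23 and 5.26. In HBx,src,p53 10 Gy fish it gave 10.25, 10.48 and 11.33, the highest values of all arrays. With OF, these fish gave 7.79, 5.15, 7.61, 7.66 and 7.66. All 5 arrays with OF lay below the 3 without it, while the WT arrays lay the other way round, at 7.23 and 6.71 with OF. Thus the genotypes lay apart in fish irradiated without OF, whereas with OF their arrays overlapped. With OF, replicate 2 of the HBx,src,p53 fish, at 5.15, was below both WT arrays. The other HBx,src,p53 arrays with OF, at 7.61 to 7.79, were above both. A separation of arrays with and without OF, in either direction, was found for 17.8% of all genes in HBx,src,p53 fish and 56.8% in WT 10 Gy fish.

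The level of fabp7a was 5.44 higher (SE 0.69, 43.4-fold) in HBx,src,p53 than in WT fish after 10 Gy alone (limma, adjusted p = 2.84e-05). With OF, fabp7a fell by 3.51 (SE 0.55, 11.4-fold) in the HBx,src,p53 fish (adjusted p = 0.00202). In the WT 10 Gy fish the difference with OF was 1.73 (SE 0.75, adjusted p = 0.254). The OF effects in both genotypes differed by -5.24 (SE 0.93, adjusted p = 0.00198), a difference of effects that 6.8% of all genes also passed. After OF and 10 Gy the genotypes differed by 0.20, with a 95% interval of -1.12 to 1.53 (adjusted p = 0.978). Without the low array, replicate 2, the difference with OF was -3.00 (adjusted p = 0.00108), and without the 2 arrays of low vtg2 it was -3.88 (adjusted p = 0.0061). The WT groups also differed in vtg2, at 13.71 and 13.89 in WT 10 Gy and 3.96 and 3.18 in WT OF + 10 Gy fish. In WT 10 Gy fish, OF and the state of vitellogenin and ovary genes therefore cannot be told apart. The part of the ovary genes on the WT 10 Gy arrays in the difference between genotypes was not tested. Nor was the part of vtg2 and ovary genes in the difference of effects.

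A further probe set for fabp7a, 13050814, gave the same order at 10 Gy. It read 7.56, 7.52 and 8.80 in HBx,src,p53 10 Gy fish and 5.08, 3.09, 4.44, 4.87 and 4.89 with OF. These 2 groups did not overlap, as was the case for 11.7% of all probe sets. In WT fish probe set 13050814 read 4.07 and 3.27 after 10 Gy and 4.81 and 3.68 with OF. On this probe set, the HBx,src,p53 level was 4.29 above WT (SE 0.55, adjusted p = 3.59e-05), and fell by 3.49 with OF (SE 0.44, adjusted p = 0.000383). Replicate 2 of the OF group was again the lowest array of its group.

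**Figure D2:**
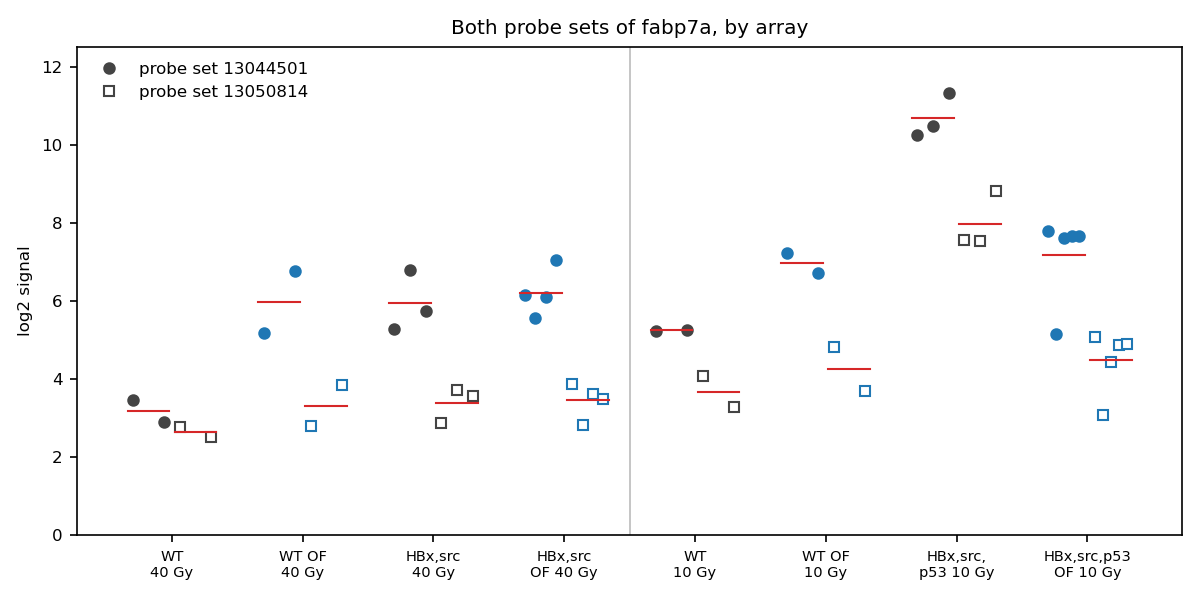
Log2 signal (y axis) of both fabp7a probe sets on each array, by group (x axis). Filled circles are probe set 13044501, which represents the gene, open squares are probe set 13050814, blue marks OF and red lines are group means. Both are highest in the 3 HBx,src,p53 10 Gy arrays (10.25 to 11.33 and 7.52 to 8.80), whereas at 40 Gy the second changes little between groups.

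At 40 Gy the picture for fabp7a was less firm. WT 40 Gy fish gave 3.46 and 2.89, the lowest values of the gene, and WT OF + 40 Gy fish gave 5.17 and 6.77. HBx,src fish gave 5.28, 6.78 and 5.74 after 40 Gy alone and 6.14, 5.55, 6.10 and 7.05 with OF. The WT 40 Gy arrays lay apart from the other 3 groups, which overlapped each other. Such a separation from WT OF + 40 Gy was found for 49.5% of all genes, and from HBx,src 40 Gy for 28.5%. The level in HBx,src fish was 2.76 above WT after 40 Gy alone (SE 0.69, adjusted p = 0.0476), a call that was lost when any single array of either group was left out (adjusted p 0.0634 to 0.171). The difference with OF was 2.80 in WT fish (SE 0.75, adjusted p = 0.0528) and 0.28 in HBx,src fish (SE 0.58, adjusted p = 0.945). Vitellogenin was low in both WT groups and high in both HBx,src groups. After 40 Gy alone, 4 of 7 oestrogen response genes were higher in HBx,src than in WT fish, against 1.29% of all genes. The part of these oestrogen response genes in the fabp7a values was not tested. The OF effects at 40 Gy differed by -2.52 (SE 0.95, adjusted p = 0.408), so a dependence on genotype at 40 Gy did not pass the test. Between WT 40 Gy and WT 10 Gy fish the OF effect on fabp7a differed by 1.07 (SE 1.07, adjusted p = 0.712). Probe set 13050814 gave 0.74 for HBx,src against WT (adjusted p = 0.61) and 0.67 for OF in WT (adjusted p = 0.622).

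The values of fabp7a were set beside genes of the nervous system. The mean over 13 measured brain and glia markers was 2.54 to 2.66 in HBx,src,p53 10 Gy fish, 2.34 to 2.58 with OF and 2.47 to 2.83 in WT 10 Gy fish, near the array medians in each. Of the 13 markers, 6 to 9 were below the array median in HBx,src,p53 10 Gy fish, depending on the array, and the rest were above it. Among them, the glial filament gene gfap was at 1.66 to 1.84 in these fish, below the median on all 3 arrays. None of the 13 markers passed the test in any of the 8 comparisons, in which 1.06% to 13.8% of all genes passed. A count of 0 among 13 genes does not set these markers apart from other genes. Over all 23 arrays, after removal of the batch mean, the genes with the pattern most like that of fabp7a were rwdd1 (r = 0.878), sdhc, a subunit of succinate dehydrogenase (r = 0.849), and foxred1, an assembly factor of respiratory complex I (r = 0.846). These r are descriptions, over arrays that share groups and batches. In HBx,src,p53 10 Gy fish foxred1 was at 7.65 to 8.11, against 6.00 to 7.24 with OF. It was at 3.67 to 4.51 in WT 10 Gy fish and at 5.89 to 6.27 in WT OF + 10 Gy fish. As foxred1 was picked by its likeness to fabp7a on these same arrays, its levels are not independent of those of fabp7a.

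The liver type, fabp10a, was far above the array median on all arrays, at 11.85 to 13.33. WT 40 Gy fish gave 11.85 and 12.54, and WT OF + 40 Gy fish 12.48 and 12.17. HBx,src fish gave 12.32, 12.49 and 12.12 after 40 Gy and 12.99, 12.69, 12.31 and 12.82 with OF. These groups of the first batch overlapped. WT 10 Gy fish gave 12.84 and 12.38, and WT OF + 10 Gy fish 13.30 and 13.04. HBx,src,p53 fish gave 11.90, 12.86 and 12.47 after 10 Gy and 13.29, 13.13, 13.20, 13.33 and 12.93 with OF. At 10 Gy the arrays with OF lay above those without it in both genotypes.

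No difference of fabp10a with OF passed the test. It was 0.77 in HBx,src,p53 10 Gy fish (SE 0.21, adjusted p = 0.0596), 0.56 in WT 10 Gy fish (SE 0.29, adjusted p = 0.374), 0.39 in HBx,src fish (adjusted p = 0.536) and 0.13 in WT 40 Gy fish (adjusted p = 0.878). Whether the difference in HBx,src,p53 fish passed depended on the processing. It passed without replicate 2 of HBx,src,p53 10 Gy, and when p-values were adjusted over 1 probe set per gene. It also passed with either quantile normalization and without the dimmest probe sets. A non-overlap of the kind seen at 10 Gy was found for 17.8% of all genes in HBx,src,p53 fish and 56.8% in WT fish. Other hepatocyte genes moved in the same comparison. Of 22 measured hepatocyte markers, 7 rose and 0 fell with OF in HBx,src,p53 10 Gy fish, with a median difference of 0.61 against 0.00118 over all genes. Among all genes 2.51% rose and 3.29% fell. The part of the hepatocyte marker changes in the fabp10a values was not tested. The second fabp10a probe set, 13042530, differed with OF by 0.47 in HBx,src,p53 fish (adjusted p = 0.518), 0.07 in WT 10 Gy fish (adjusted p = 0.974), -0.09 in HBx,src fish (adjusted p = 0.974) and -0.42 in WT 40 Gy fish (adjusted p = 0.661), so its direction followed the first in 2 of 4 comparisons.

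The level of fabp10a, the gene whose promoter drives the transgenes, did not differ detectably with genotype. HBx,src fish were 0.12 above WT after 40 Gy alone, with a 95% interval of -0.45 to 0.68 (adjusted p = 0.914). HBx,src,p53 fish differed from WT by -0.20 after 10 Gy alone, with an interval of -0.76 to 0.36 (adjusted p = 0.811). With OF the genotypes differed by 0.38 at 40 Gy, with an interval of -0.16 to 0.91 (adjusted p = 0.746), and by 0.01 at 10 Gy, with an interval of -0.51 to 0.52 (adjusted p = 0.998). On probe set 13042530 the largest of these differences was 0.67 with OF and 40 Gy (SE 0.36, adjusted p = 0.609). Genes with the pattern most like fabp10a were si:dkey-22f5.9 (r = 0.83), amotl2a, which codes for an angiomotin-like junction protein (r = 0.824), and romo1, a mitochondrial inner membrane protein (r = 0.81).

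**Figure D3:**
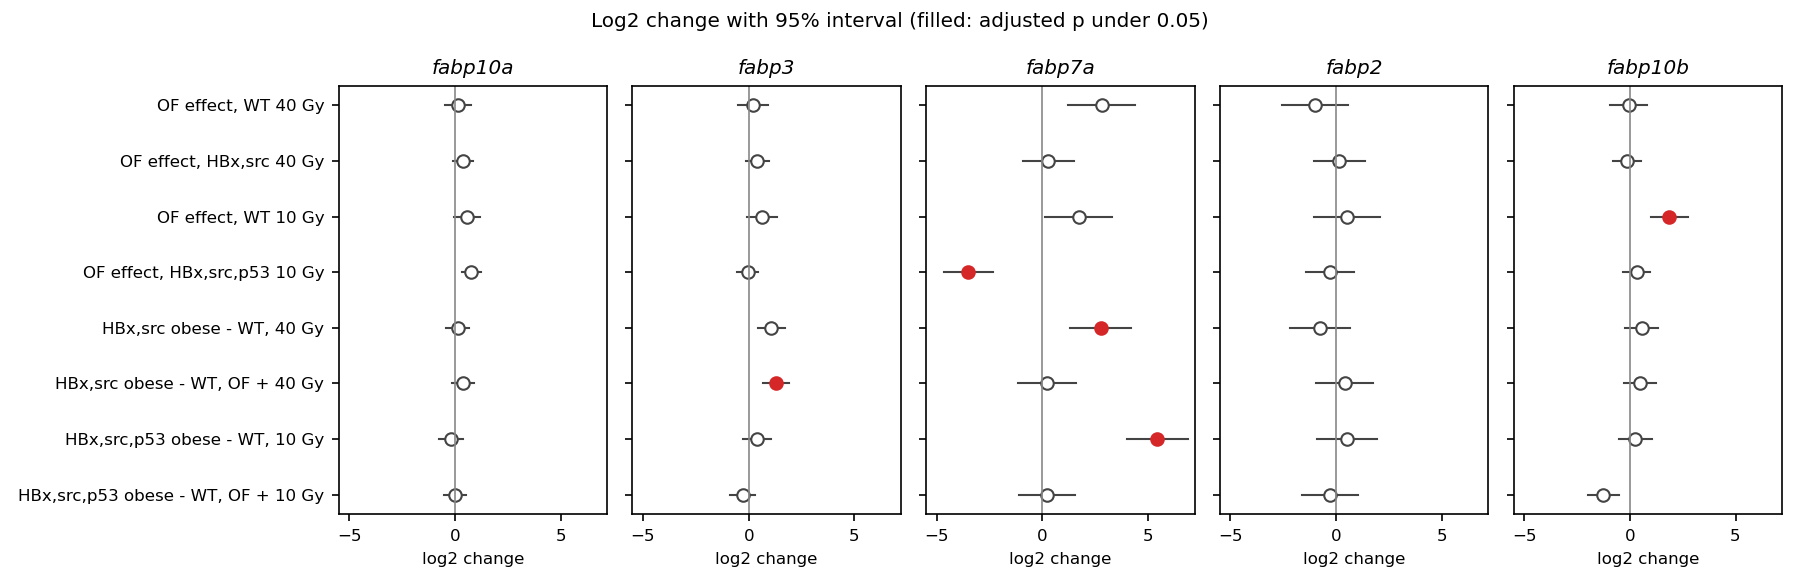
Log2 change (x axis) of 5 FABP genes in 8 comparisons (y axis), as OF + R minus R or as transgenic obese minus WT. Points are estimates, lines are 95% intervals, and red points passed the test (adjusted p under 0.05). fabp7a is higher by 5.44 in HBx,src,p53 than in WT fish after 10 Gy and changes by -3.51 with OF in those fish, and for fabp10a no comparison passed.

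The paralogue fabp10b, the second copy of the liver basic type, gave low signals, 1.98 to 4.19, and was below the array median on 6 of 23 arrays. WT 10 Gy fish gave 2.23 and 1.98, and WT OF + 10 Gy fish 3.75 and 4.19. The difference of 1.86 passed the test (SE 0.41, adjusted p = 0.0104). Both arrays without OF were below their array medians, and with these medians as a floor the difference was 1.43 (adjusted p = 0.0528). The call was lost without WT 10 Gy replicate 2 (adjusted p = 0.0851) or without WT OF + 10 Gy replicate 2 (adjusted p = 0.109). In WT 40 Gy fish fabp10b gave 2.41 and 2.42, and 2.48 and 2.24 with OF. The difference of the OF effect between WT 40 Gy and WT 10 Gy fish was -1.92 (SE 0.59, adjusted p = 0.0883).

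In transgenic fish fabp10b had 2 arrays that were high for their groups. HBx,src fish gave 2.37, 2.66 and 3.88 after 40 Gy and 3.02, 3.28, 2.54 and 2.51 with OF. HBx,src,p53 fish gave 2.57, 2.18 and 2.37 after 10 Gy and 3.52, 2.64, 2.55, 2.50 and 2.33 with OF. After OF and 10 Gy the HBx,src,p53 level differed from WT by -1.26 (SE 0.35), which did not pass the test (adjusted p = 0.126). Without HBx,src,p53 OF + 10 Gy replicate 1 it was -1.46 and passed (adjusted p = 0.0341). The OF effect on fabp10b in HBx,src,p53 fish differed from that in WT 10 Gy fish by -1.53 (SE 0.51, adjusted p = 0.144), and by -1.73 without that array (adjusted p = 0.0457).

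High fabp10b went with low vitellogenin in part. The WT OF + 10 Gy arrays had vtg2 at 3.96 and 3.18, and HBx,src,p53 OF + 10 Gy replicate 1 had it at 3.69, together with the 3 highest fabp10b values of the second batch. However, WT 40 Gy arrays had vtg2 at 2.42 and 2.81 with fabp10b at 2.41 and 2.42. HBx,src,p53 OF + 10 Gy replicate 4 had vtg2 at 6.51 with fabp10b at 2.50. HBx,src 40 Gy replicate 3 had vtg2 at 13.76 with fabp10b at 3.88. With OF in WT 10 Gy fish, 6 of 7 measured oestrogen response genes and 19 of 25 ovary and oocyte genes fell and 8 of 9 erythrocyte genes rose. Among all genes 6.56% fell and 2.63% rose. The part of these marker genes in the fabp10b result was not tested.

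**Figure D4:**
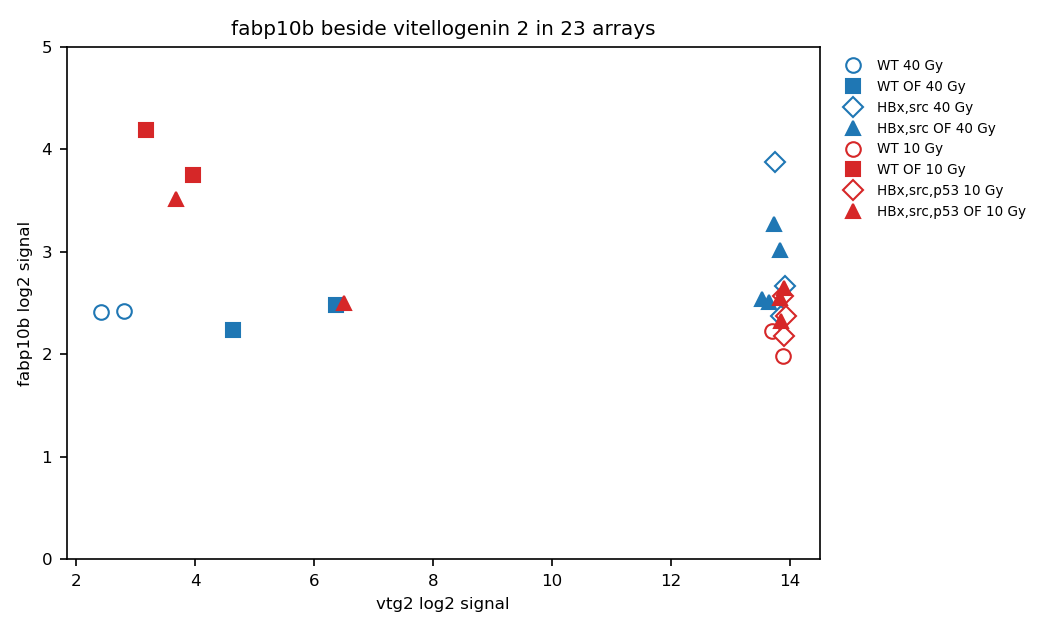
fabp10b log2 signal (y axis) against vtg2 log2 signal (x axis) on 23 arrays. Blue is the 40 Gy batch, red the 10 Gy batch, filled symbols are arrays with OF and open symbols arrays without it. The 3 highest fabp10b values of the 10 Gy batch (3.52, 3.75 and 4.19) have low vtg2, but so do WT 40 Gy arrays with fabp10b at 2.41 and 2.42.

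The heart type, fabp3, which supplies fatty acids to oxidation in muscle, was far above the array median in liver, at 9.35 to 12.39. WT 40 Gy fish gave 9.57 and 10.24, and WT OF + 40 Gy fish 9.35 and 10.87. HBx,src fish gave 11.06, 10.84 and 11.05 after 40 Gy and 11.69, 11.48, 11.11 and 11.29 with OF. All HBx,src arrays lay above the WT arrays of the same treatment, and these groups were apart for 28.5% of all genes after 40 Gy alone and 23.8% with OF. Within HBx,src fish the arrays with OF lay above those without it, a separation seen in either direction for 14.5% of all genes. In the second batch, WT 10 Gy fish gave 11.62 and 11.54, and WT OF + 10 Gy fish 12.02 and 12.39. These did not overlap, as was the case for 56.8% of all genes. HBx,src,p53 fish were at 11.87 to 12.12 after 10 Gy and at 11.76 to 12.08 with OF, overlapping.

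The level of fabp3 in HBx,src fish was 1.28 above WT with OF and 40 Gy (SE 0.29, 2.43-fold, adjusted p = 0.0436) and 1.08 above WT after 40 Gy alone (SE 0.31, adjusted p = 0.0844). The first value fell to 0.52 without WT OF + 40 Gy replicate 1 (adjusted p = 0.595). At 10 Gy the genotypes differed by 0.40 alone (adjusted p = 0.603) and by -0.28 with OF (adjusted p = 0.874). With OF, fabp3 differed by 0.62 in WT 10 Gy fish (adjusted p = 0.393), 0.41 in HBx,src fish (adjusted p = 0.595), 0.21 in WT 40 Gy fish (adjusted p = 0.816) and -0.06 in HBx,src,p53 fish (adjusted p = 0.954). The muscle genes were low throughout. The mean over 24 measured heart and skeletal muscle markers was 1.89 to 2.31 per array, and myl7, a cardiac myosin light chain that is also the promoter of the green reporter in the transgenic lines, was at 1.05 to 3.22.

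The gene with the pattern most like fabp3 was rbp2a (r = 0.917), a retinol binding protein of the same superfamily. It was at 6.58 and 8.02 in WT 40 Gy fish and at 9.06 to 9.68 in HBx,src fish, and was higher in HBx,src fish by 2.05 after 40 Gy alone (adjusted p = 0.0488) and by 2.23 with OF (adjusted p = 0.0363). The next were pex3, needed for peroxisome formation (r = 0.906), sccpdha.1 (r = 0.902), hsd17b4, a peroxisomal oxidation enzyme, and acadm, the medium-chain acyl-CoA dehydrogenase of mitochondria (both r = 0.901). Of 8 measured relatives of the superfamily, cellular retinoid binding proteins and other FABPs, only rbp2a passed the test in any of the 8 comparisons. It passed in these 2 comparisons of HBx,src with WT fish, as did 2.68% of all genes after 40 Gy alone and 1.4% with OF. Its likeness to fabp3 was found on these same arrays, so its differences are not independent of those of fabp3.

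The intestinal type, fabp2, differed between the batches more than within them. It was at 2.36 to 4.53 on the 11 arrays of the 40 Gy batch and at 5.19 to 7.57 on the 12 arrays of the 10 Gy batch. Relative to the array medians these were 0.28 to 2.42 and 2.63 to 5.05 higher, still without overlap. Dose, batch and normalization cannot be told apart here. Within the batches no comparison passed the test. The largest difference was with OF in WT 40 Gy fish, which gave 3.65 and 3.95 without and 2.36 and 3.23 with OF, a difference of -1.01 (SE 0.74, adjusted p = 0.519). The OF effect on fabp2 differed between HBx,src and WT 40 Gy fish by 1.17 (SE 0.93, adjusted p = 0.778), and between WT 40 Gy and WT 10 Gy fish by -1.52 (SE 1.05, adjusted p = 0.547). Of the group means, the 4 in the first batch had overlapping neighbours in order of level, as did the 4 in the second.

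Markers of the gut were given beside fabp2. The mean over 18 measured enterocyte markers was 3.23 to 3.71 on the arrays of the first batch and 3.23 to 4.69 on those of the second, with overlap. Of the 18, 4 to 10 were below the array median, depending on the array. The intestinal transcription factor cdx1b was at 1.54 to 2.79. The enterocyte marker vil1 was at 3.12 to 4.53, above the array median on all arrays. The part of gut tissue in the fabp2 values was not tested.

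The adipocyte type in fish, fabp11a (now fabp4a), was at 3.59 to 4.31 in the first batch and at 4.84 to 5.67 in the second. On its other probe set, 13069885, the batches overlapped, with 3.50 to 4.38 and 3.89 to 5.17. Within the batches no comparison passed the test on either probe set. HBx,src,p53 fish gave 4.84, 5.47 and 5.47 after 10 Gy and 5.60, 5.67, 5.51, 5.49 and 5.61 with OF. These did not overlap, as was the case for 17.8% of all genes. The difference of fabp11a was 0.32 (SE 0.16, adjusted p = 0.374), against 0.53 on probe set 13069885 (SE 0.21, adjusted p = 0.21). In the obese HBx,src fish, fabp11a differed from WT by -0.04 after 40 Gy alone, with a 95% interval of -0.47 to 0.39 (adjusted p = 0.965). In the obese HBx,src,p53 fish the difference was -0.10 after 10 Gy alone, with an interval of -0.53 to 0.33 (adjusted p = 0.891). The lipid droplet coat gene plin1, which marks adipocytes, was at 1.88 to 3.96, and the mean over 9 adipocyte markers was 3.25 to 4.13. The probe set shared by fabp1b.1 and fabp1b.2 also lay higher in the second batch, at 4.23 to 5.46, against 2.82 to 3.71 in the first.

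The liver type of mammals has the zebrafish copy fabp1a, whose signal of 1.48 to 2.45 was below the array median on 21 of 23 arrays. The 2 arrays above it were those of WT 40 Gy, at 2.31 and 2.45, against 1.68 and 1.48 in WT OF + 40 Gy. The difference of -0.80 passed the test (SE 0.20, adjusted p = 0.0375). The array medians themselves differed by -0.15 in this comparison, and after centring each array on its median the difference was -0.65 and did not pass (adjusted p = 0.0699). With the array median as a floor the difference was -0.33 and still passed, but the floor sets fabp1a at the array median itself on 21 of 23 arrays. The call was lost when any single array of either group was left out (adjusted p 0.0599 to 0.292). In the other 3 OF comparisons fabp1a differed by -0.19 to -0.04, and none passed the test.

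The ileal bile acid binding gene fabp6 was below the array median on 20 of 23 arrays, with signals of 1.51 to 2.29. The second brain type, fabp7b, was below it on all 23, with signals of 1.1 to 2.24. Neither passed the test in any comparison. In the HBx,src,p53 10 Gy fish, where its paralogue fabp7a was highest, fabp7b was at 1.67 to 1.81, and at 1.51 to 2.22 with OF.

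Genes that bring fatty acids into the cell, activate or release them, and the nuclear receptors that govern FABP genes, were then examined as a list of 57, of which 51 were measured. With OF, 2 rose and 0 fell in WT 40 Gy fish, 4 rose and 0 fell in HBx,src fish, 5 rose and 1 fell in WT 10 Gy fish, and 8 rose and 3 fell in HBx,src,p53 fish. Among all genes, 4.07%, 2.11%, 2.63% and 2.51% rose in the same order of comparisons, and 0.751%, 0.225%, 6.56% and 3.29% fell. The median difference of the list was 0.30, 0.32, 0.44 and 0.31, against 0.07, 0.02, 0.03 and 0.00118 over all genes.

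In the comparison where fabp7a fell, OF in HBx,src,p53 fish, several genes of this list rose, and a link to fabp7a was not tested. These were slc27a2b, a fatty acid transporter and very long-chain acyl-CoA synthetase, by 3.56 (SE 0.46, adjusted p = 0.000469), the PPAR coactivator ppargc1a by 3.14 (adjusted p = 0.0078), the acyl-CoA synthetase acsbg1 by 1.17 (adjusted p = 0.00854) and hnf4a, a hepatocyte nuclear receptor, by 1.2 (adjusted p = 0.00987). Chosen after their values were seen, the PPAR genes pparab and pparaa rose by 1.85 and 1.45 (adjusted p = 0.0101 and 0.0406). The 3 that fell, named likewise, were acsl1b and acsbg2, both acyl-CoA synthetases, by 2.96 and 2.93 (adjusted p = 0.0498 and 0.0417), and dbi, the acyl-CoA binding protein, by 1.24 (adjusted p = 0.0318). In WT 10 Gy fish, slc27a2b rose by 2.90 (adjusted p = 0.00897) and pparab by 2.59 (adjusted p = 0.00345) with OF, and the lipoprotein receptor scarb1 fell by 3.27 (adjusted p = 3.91e-06). There fabp7a did not pass the test. After 10 Gy alone, scarb1 also differed by -3.17 between HBx,src,p53 and WT fish (adjusted p = 1.61e-06). The WT 10 Gy arrays carried ovary and oocyte genes and high vtg2. The part of these in the values of the list was not tested.

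At 40 Gy, hnf4a rose with OF in both genotypes, by 1.39 in WT (adjusted p = 0.0297) and 1.24 in HBx,src fish (adjusted p = 0.0184), and mgll, the monoacylglycerol lipase, rose by 2.3 in HBx,src fish (adjusted p = 0.0101), while fabp10a and fabp3 did not pass. In HBx,src fish after 40 Gy alone, slc27a6, another fatty acid transporter, differed from WT by -6.79 (SE 1.58, adjusted p = 0.0341). Chosen after its values were seen, slc27a6 also rose with OF in WT 10 Gy fish, by 6.37 (SE 1.73, adjusted p = 0.0387). In the other OF comparisons it differed by -1.58 to 4.61 and did not pass. In both comparisons that passed, the groups also differed in vtg2, and the part of vtg2 in the slc27a6 values was not tested. The bile acid receptor nr1h4 differed by -2.00 between HBx,src and WT fish after 40 Gy alone (adjusted p = 0.00259). With OF, nr1h4 rose by 1.46 in HBx,src fish (adjusted p = 0.00766). For HBx,src against WT after 40 Gy alone, 1 of the 51 list genes was higher and 2 were lower, against 1.29% and 1.4% of all genes. With OF and 40 Gy 2 were higher and 0 lower, against 0.287% and 1.11%. At 10 Gy alone 1 was higher and 3 were lower, against 5.35% and 8.44%. With OF and 10 Gy 1 was higher and 0 lower, against 0.383% and 0.674%.

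The members did not share a pattern over the arrays. After removal of the batch means, the correlations between pairs of members over 23 arrays ran from -0.41 for fabp1a and fabp7a to 0.41 for fabp3 and fabp10b, as a description over arrays that share batch and group. The 2 copies of the liver basic type, fabp10a and fabp10b, had r = 0.34, and the 2 brain types had r = -0.17.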

How the data were processed

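Liver RNA was hybridised to ZebGene 1.1 ST arrays. The log2 signals that the authors deposited, for 75212 probe sets, were made with the Transcriptome Analysis Console. The sources used here give neither its version nor its summarisation method, nor whether both batches were normalized together. The deposited signals were used unchanged. The platform annotation gave 1 gene symbol for 30358 probe sets, several for 1015 and none for 43839, and a gene was represented by the probe set of highest mean. Symbols were updated through RefSeq. One mean per group was fitted to all 23 arrays with limma 3.58.1 (lmFit and eBayes, in R 4.3.3 with version 1.17.8 of data.table), with Benjamini-Hochberg adjustment over all probe sets and a threshold of 0.05. The fit was tested on simulated data. Figures were drawn with matplotlib 3.10.9, numpy 2.4.6 and pandas 2.3.3 under python 3.11.15. The number of arrays limits the precision. Within groups arrays correlated at 0.898 to 0.965, and no pair was identical. Groups came from the sample labels. Columns not assigned to a sample numbered 0.

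The members, the gene lists and the tests were chosen with earlier results of these data known. By rule, all members were named, with a change in each comparison where it passed the test or reached 1, and further changes were added with values known. From the other lists, at most the 4 genes of smallest p per comparison were named, with exceptions marked. Likeness was Pearson's r over batch-centred arrays, for the 3 members of highest mean signal. Alternatives covered scaling, the samples fitted, a replicate block, array weights, dim probe sets, the probe set rule, the study's thresholds and each array left out.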

Additional observations from a re-analysis of the deposited data

Results flagged for a closer look

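Of 18 pairs of member and group that had enough arrays to look for an outlying array, 2 held one, and chance alone gives about 1 in 20. In HBx,src,p53 OF + 10 Gy fish, replicate 1 had fabp10b at 3.52, against 2.33 to 2.64 on the other arrays of the group. In the same group, replicate 2 had fabp7a at 5.15, against 7.61 to 7.79 on the others.

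The OF effect on fabp7a differed between genotypes at 10 Gy by -5.24 (HBx,src,p53 minus WT, SE 0.93, limma, adjusted p = 0.00198). In HBx,src,p53 fish, 5 of 5 arrays with OF lay below the lowest array without it, whereas in WT fish the difference with OF was 1.73 and did not pass the test (adjusted p = 0.254). Both WT arrays with OF lay above both without it. Arrays with and without OF were apart for 56.8% of all genes in WT 10 Gy fish and 17.8% in HBx,src,p53 fish. The WT 10 Gy groups also differed in vtg2 and ovary genes, and the part of these in the difference of effects was not tested.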

How the results depend on the processing

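Of 18 member differences examined, 18 kept their direction under all alternatives. Of the 7 that passed the test, 1 passed it under all alternatives, and 7 others passed it neither as reported nor under any alternative. The difference of fabp7a between HBx,src,p53 and WT fish after 10 Gy was called in all 18 alternatives (4.87 to 5.66). The fall of fabp7a with OF in HBx,src,p53 fish was called in 20 of 22, and not with a replicate block (-3.83, adjusted p = 0.209, and -3.80, adjusted p = 0.223, with centring too). The difference of this effect from that in WT 10 Gy fish was called in 24 of 26, and not with a replicate block (-5.56, adjusted p = 0.0586, and 0.0647 with centring too).

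Counts of members called moved as follows. In WT 40 Gy fish with OF the count of 1 became 0 with quantile normalization within batches, with the compared groups or the batch fitted alone, and with array weights. It became 2 when adjusted over 1 probe set per gene, and 4 with the array median as a floor. The floor replaces signals below the array median by that median. For fabp7b, below it on all 23 arrays, the floored difference is only that of the array medians, -0.15. The 4 calls are therefore not read as responses of members. In WT 10 Gy fish with OF the count became 0 with quantile normalization over all arrays, with the compared groups alone and with the floor, and 2 under the study's thresholds. In HBx,src,p53 fish with OF it became 2 with either quantile normalization, without the dimmest probe sets and when adjusted per gene, fabp10a being the added gene. For HBx,src against WT after 40 Gy alone it became 2 with quantile normalization over all arrays and under the study's thresholds, and 0 with the compared groups or the batch alone, with array weights and with probe sets of a gene averaged. With OF and 40 Gy it became 0 with centring, either quantile normalization and the compared groups or the batch alone. For HBx,src,p53 against WT with OF and 10 Gy the count of 0 became 1 under the study's thresholds and without both arrays of low vitellogenin, an alternative chosen after seeing the data. Leaving out each array in turn gave 0 to 1 for OF in WT 40 Gy and WT 10 Gy fish, 1 to 2 for OF in HBx,src,p53 fish, 0 to 0 for HBx,src against WT after 40 Gy alone, 0 to 1 with OF and 40 Gy, and 0 to 1 for HBx,src,p53 against WT with OF and 10 Gy. The causes were not tested.

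The deviations of arrays with the same replicate number correlated at r of -0.19 to 0.26. No values for arrays of unlike number were set beside these, so whether the numbers pair the samples was not settled. With a replicate block, with or without centring, the count was 0 in WT 40 Gy, WT 10 Gy and HBx,src,p53 fish with OF and in HBx,src against WT under both treatments.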
